A study of Caenorhabditis elegans with 4 samples.

Results

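Clusters of neighbouring binding regions of a GFP-tagged homeodomain factor were described in Caenorhabditis elegans larvae of stage L3. The peaks had been located by chromatin immunoprecipitation followed by sequencing (ChIP-seq), in which DNA cross-linked to a protein is recovered with an antibody and sequenced. Peaks of the combined list were sorted by position, and consecutive peaks were joined into a run when the gap from the end of one to the start of the next was at most 2000 bp. Members, chosen by these positions alone, were the 1272 peaks in runs of 3 or more, which made up 20.1% of the 6333 combined peaks and formed 350 runs. A further 1484 peaks stood in pairs, and 3577 were single, with no other peak within 2000 bp. Widths and q scores come from the same peak calls as the positions, so all values of the combined list are a description and carry no test, and support from the replicates was treated in the same way, since all but 216 replicate 1 peaks and 62 replicate 2 peaks recur in that list.

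There were 2 ChIP samples, precipitated with an antibody against GFP, and 2 samples of input, which is chromatin set aside before precipitation. All 4 came from hermaphrodites of strain OP241, kept at 20 °C and cross-linked in 2% formaldehyde. They carried the unc119(ed3) mutation and the transgene wgIs241, made by bombardment, which holds ceh-38 fused to TY1, EGFP and FLAG together with an unc119 rescue copy, and were outcrossed 3 times. Titles name the factor CEH-28 instead, so the labels disagree and it is called the tagged factor here. The labels do not say whether replicates came from separate cultures. Without input peaks, which were not analysed here, the background is not known. The replicate 1 list held 4082 peaks and the replicate 2 list 2867. Depth is unknown, since the lists give positions and q-values without read counts. The −log10 of a peak's q-value is called its q score, and a higher score is a more significant peak.

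Homeodomain proteins bind short DNA sequences through a helical domain and regulate transcription. CEH-38 belongs to the ONECUT class, which has a cut domain beside the homeodomain. In C. elegans, ONECUT proteins act together on genes that all neurons use. CEH-28 is an NK-2 class protein known from the pharyngeal neuron M4. Worm genes lie close together, and many tagged factors of this species have been found at shared regions, so neighbouring peaks of a single factor can lie in regulatory DNA of the same gene or of adjacent genes. The files use genome build WS180. No sequence or annotation of that build was used here, so runs are given by position, without sequence and without the genes in them.

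Most runs were short. Of the 350 runs, 205 (58.6%) held 3 peaks, 96 held 4, 30 held 5, 13 held 6 and 5 held 7, and 1 held 10. The median run was 4074 bp long from the first base of its first peak to the last base of its last, with quartiles of 3142 and 5406 bp and a range of 1323 to 15460 bp. The median length was 3469 bp for 3 peaks, 4919 bp for 4 and 6274 bp for 5. Peaks covered a median of 46.7% of a run, between 12.3% and 95.3%. In all, the runs spanned 1.59 Mb, which was 1.59% of the 100.1 Mb between the outermost peaks of each chromosome, and their peaks covered 784 kb.

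**Figure D1:**
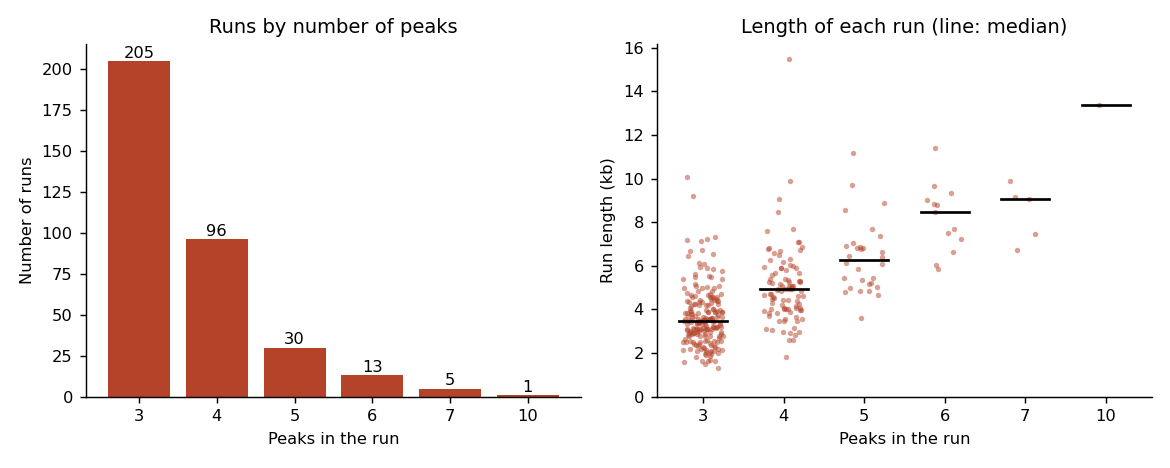
Left, number of runs (bars) by the number of peaks in the run. Right, length of each of the 350 runs in kb (points, shifted sideways at random within a size) with the median of each size (line). Runs of 3 peaks numbered 205 and had a median length of 3469 bp, and the run of 10 peaks was 13363 bp long.

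Peaks inside runs lay a median of 770 bp apart (769.5 bp over 922 gaps, quartiles 440 and 1260 bp), close to the 808.5 bp between the members of pairs. Over the whole list the median gap was 6548 bp. No gap in the combined list was shorter than 201 bp, so no entries lay closer than that. The joining distance did not fall at a break in the gaps. In the combined list 45 gaps were above 1900 and up to 2000 bp, and 50 were above 2000 and up to 2100 bp. The largest joined gap was 1991 bp and the smallest unjoined gap 2006 bp. The 90 peaks next to a gap just inside the limit were 394.5 bp wide at the median, with a median q score of 6.46, and the 100 peaks just outside had 454 bp and 7.01. A limit of 1900 bp gave 339 runs with 1221 peaks, and one of 2100 bp gave 366 runs with 1333 peaks.

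The run with most peaks was on chromosome I from 11387741 to 11401103, with 10 peaks in 13363 bp. Its first peak, 1721 bp wide, was the strongest, with q scores of 122.4 in the combined list, and 71.7 and 48.15 in replicates 1 and 2. The other 9 were between 70 and 851 bp wide with q scores between 5.11 and 23.0 in the combined list. Of the 10, 5 overlapped peaks of both replicates, 1 a replicate 2 peak only and 4 neither. This run began 327 bp after a region on the same chromosome, from 11382749 to 11387414, that reached q scores of 296.7 and 212.0 in replicates 1 and 2 but was missing from the combined list. A run of 3 peaks, from 11376969 to 11381332 with a highest q score of 119.8, ended 1417 bp before the same region. With that region in the list, the rule joined both runs and the region into 1 run of 14 peaks over 24135 bp. The start and the size of the run of 10 therefore rest on the absence of that region from the combined list.

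Runs of 7 peaks differed widely in strength. The one on chromosome IV from 2230673 to 2238152 was dense, with gaps of 268 to 488 bp and 68.3% of its 7480 bp covered. Its sixth peak reached 305.4 in the combined list, with 208.9 and 130.2 in replicates 1 and 2. The third peak had 120.1 (79.4 and 53.2 in the replicates) and the first had 80.9 (41.8 and 49.4). A single replicate 2 peak overlapped both the fifth and the sixth. The run on chromosome III from 2943497 to 2950203 was weak by contrast, with a highest q score of 17.7, peaks of 46 to 490 bp and 28.5% of its 6707 bp covered. On chromosome I from 3821394 to 3831267 the strongest of the 7 peaks had 84.9 in the combined list, with 43.8 and 50.8 in replicates 1 and 2.

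A further 2 runs of 7 each had 1 strong peak among weaker ones. On chromosome I from 10400022 to 10409173 the first peak had 47.45 in the combined list, with 24.2 and 14.6 in replicates 1 and 2, and 5 of the 7 had no support in either replicate. On chromosome II from 6836149 to 6845219 the fifth peak had 44.7, with 21.4 and 31.5 in the replicates, again with 5 of 7 unsupported. Neither run overlapped a run of 3 or more peaks in a replicate list.

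Runs of 6 peaks numbered 13, and the 4 longest of them complete the 10 runs described for their number of peaks. The one on chromosome V from 19111042 to 19122451 was 11410 bp long, with q scores of 252.6, 109.0 and 96.3 in the combined list at its strongest peaks, which stood in the second, the third and the last place. In replicate 1 these peaks had 161.2, 75.1 and 55.0, and in replicate 2 they had 124.1, 37.1 and 44.0. All 6 overlapped a replicate 2 peak and 5 a replicate 1 peak. On chromosome V from 13081024 to 13090667 the highest value was 24.9. On chromosome I, runs from 9092335 to 9101373 and from 9106400 to 9115738 were neighbours, with highest values of 34.0 and 40.1. On X the run with most peaks had 5, from 13936624 to 13941586, and none of them exceeded a q score of 5.81. In this X run 1 peak had support in both replicates and 3 had none.

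The longest run of the combined list had few peaks. It lay on X from 8014305 to 8029764 and held 4 wide peaks of 2087, 6806, 2000 and 1299 bp. Their q scores were 22.6, 51.7, 7.02 and 25.03 in the combined list, 5.81, 19.3, 3.90 and 12.4 in replicate 1, and 10.1, 13.3, 4.27 and 8.61 in replicate 2. Every one of the 4 thus had support in both replicates, and the second was the strongest in each list. In each replicate, however, separate narrower peaks stood in place of the second. The run overlapped a run of 3 or more peaks in replicate 1 but none in replicate 2.

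**Figure D2:**
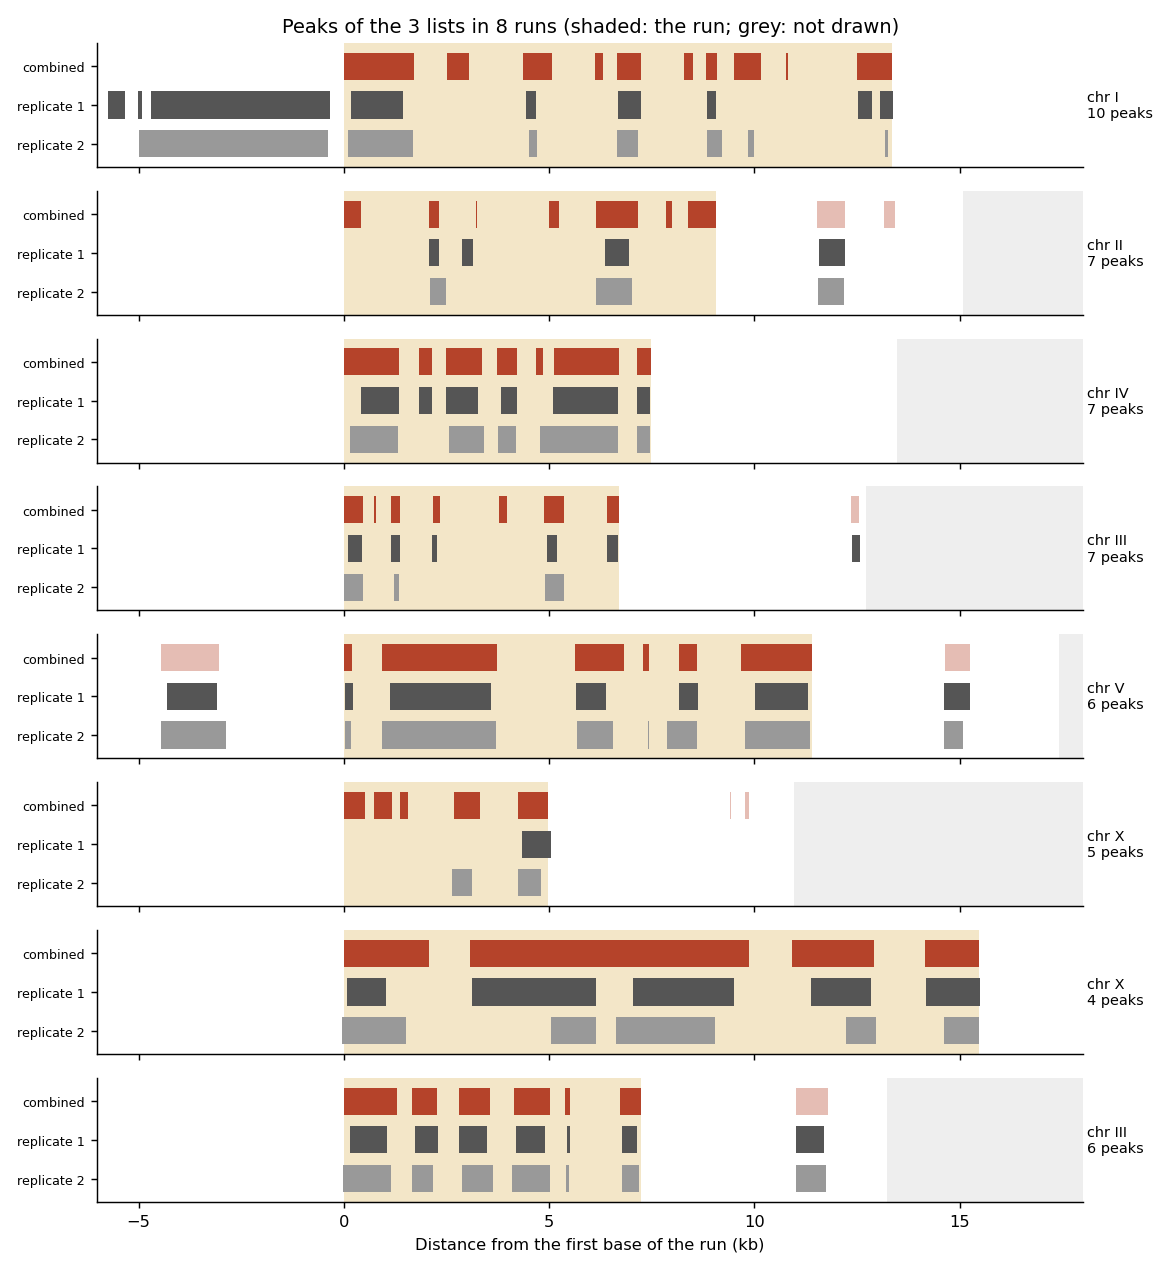
Peaks of the combined, replicate 1 and replicate 2 lists (boxes, drawn to scale) in 8 runs, against the distance from the first base of the run in kb. The shaded band is the run, pale boxes are combined peaks outside it, and the area in grey was not drawn. The rows are the run with most peaks on each chromosome, the longest run (X, 4 peaks) and the run with the lowest q among those with full support (III, 6 peaks). Left of the chromosome I run both replicates have a wide peak and the combined list has none.

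In 26 of the 350 runs (7.43%) every peak overlapped peaks of both replicates. The run of this kind with the lowest q was on chromosome III from 1875906 to 1883137 and held 6 peaks. Their q scores, in order along the chromosome, were 302.2, 40.2, 149.7, 104.7, 6.44 and 50.0 in the combined list. Replicate 1 gave 210.3, 24.7, 105.7, 67.2, 5.76 and 31.35, and replicate 2 gave 151.0, 14.1, 70.1, 46.0, 3.79 and 19.6. The 6 peaks ranked in the same order in all 3 lists. Of the others, the run on chromosome I from 13789082 to 13794243 had 2 strong peaks, with q scores of 133.4 and 119.6 in replicate 1 and 72.1 for each in replicate 2, on either side of a weaker one with 16.2 and 9.87. The shorter run on I from 1282159 to 1284708 held 3 peaks of increasing strength along the chromosome, with combined scores of 10.5, 36.35 and 185.7. On V, the run from 19063136 to 19069743 had its strongest peak, at 146.8, in the third of 4 places. The run on chromosome V from 6220847 to 6230024 was the most densely covered of all 350, with 95.3% of its 9178 bp inside 3 peaks of 1548, 3104 and 4092 bp that were 215 and 221 bp apart.

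Of these 26 runs, 20 held 3 peaks, the smallest size, as did 205 of all 350 runs. A condition on every peak of a run is met more easily by fewer peaks. The 26 runs numbered 7 on III, 6 on X, 5 on V, 4 on I, 3 on IV and 1 on II. The share of runs with full support was 14.3% of the 42 on X and lay between 3.57% (II) and 8.62% (V) on the other chromosomes. Among runs of 3 peaks, 5 of 32 on X had full support. On I it was 4 of 35 and on II 1 of 17, and on III, IV and V it was 5 of 51, 3 of 42 and 2 of 28. Counted by peak, the members on X were not the best supported, with 47.45% in both replicates on X and 49.1% on V. At the other end, in 12 runs (3.43%) no peak overlapped either replicate list, and each of these held 3 peaks. This too is a condition on every peak, more easily met by fewer. The remaining 312 runs had at least 1 peak with support in a replicate and at least 1 without support in both.

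Within runs the strongest peak had a median q score of 22.8 and the other 922 members one of 6.22, a difference that picking the strongest by its q score fixes. The ratio of the highest to the second highest q score had a median of 1.84 and exceeded 2 in 159 runs (45.4%). In 161 runs no peak was above a q score of 20, in 117 runs 1 was, in 50 runs 2 were and in 22 runs 3 or more were. These values were not set against groups of peaks outside runs. Among the 205 runs of 3, the strongest peak was the first in 54, the middle one in 77 and the last in 74. The q scores of adjacent members were nearly unrelated in rank, with a Spearman's rho of 0.08 over 922 adjacent pairs within runs. It was 0.07 over 2761 adjacent pairs of single peaks, which share the same libraries and chromosomes.

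Peaks in runs were wider than single peaks. Their median width was 474.5 bp, against 423 bp in pairs and 373 bp for single peaks, and 197 of the 1272 (15.5%) were at least 1000 bp wide, against 188 of 3577 single peaks (5.26%). Over all combined peaks 8.51% were that wide. Members also had lower q, with a median q score of 7.99, against 6.62 for single peaks and 7.07 for all combined peaks. Values above 50 were found for 118 members (9.28%) and for 139 single peaks (3.89%), against 5.56% of all combined peaks. Width followed q, so it was read within classes of q score. Between 10 and 20 the median width was 619.5 bp in runs and 510 bp for single peaks, between 20 and 50 it was 861 and 684.5 bp, and above 50 it was 1264 and 1107 bp. Between 4 and 6 it was 274 bp in runs and 280 bp for single peaks, and at or below 4 it was 200 and 226 bp. In the combined list the wider peaks of runs were thus seen above a q score of 6 and not below. Gaps were measured from peak end to peak start, so at the same spacing of centres wider peaks left smaller gaps. Width was therefore not independent of the rule.

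The rule gave the same direction when applied to each replicate list alone. Width enters the gaps of those lists in the same way, so these values are a description and not independent support. In replicate 1 the median width was 434 bp in runs and 364 bp for single peaks, and in replicate 2 it was 563.5 and 451 bp. The median was higher in runs on each of the 6 chromosomes in both lists, although on chromosome IV it was 347 against 346 bp in replicate 1 and 427 against 424 bp in replicate 2. Peaks narrower than 50 bp had similar shares in both classes of the combined list, at 27 of the members (2.12%) and 73 of the single peaks (2.04%). Over all combined peaks the share was 2.16%.

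Support from the replicates was more frequent in runs than among single peaks over all strengths. Of the 1272 members, 580 (45.6%, exact Clopper-Pearson 95% interval 42.8 to 48.4) overlapped peaks of both replicates by at least 1 bp, against 38.4% of all combined peaks. The share was 41.85% (39.3 to 44.4) in pairs and 34.4% (32.8 to 35.9) for single peaks. A replicate 1 peak only was overlapped by 225 members (17.7%), against 20.9% of all combined peaks, and a replicate 2 peak only by 63 (4.95%), against 5.04% of all. Neither list was overlapped by 404 members (31.8%), against 1365 single peaks (38.2%) and 35.7% of all combined peaks. The intervals cover counting error only, and peaks of 1 run are not independent.

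Within classes of similar q the shares of runs and single peaks lay close together. Between a q score of 6 and 10, 28.5% of 277 members and 24.5% of 862 single peaks had support in both replicates. Between 10 and 20 the shares were 81.6% of 250 and 83.3% of 634. Above 20 all 289 members and all 473 single peaks had it, and at or below 6 both shares were under 2%. Weighting the classes as they occur among single peaks gave 35.3% for members, against the 34.4% of single peaks. Stricter definitions of support gave smaller differences over all strengths than the 11.2 percentage points above. At a 50% reciprocal overlap the shares were 36.6% in runs and 30.4% for single peaks, a difference of 6.20 points. With peak centres within 100 bp they were 28.5% and 26.8%, a difference of 1.68 points.

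**Figure D3:**
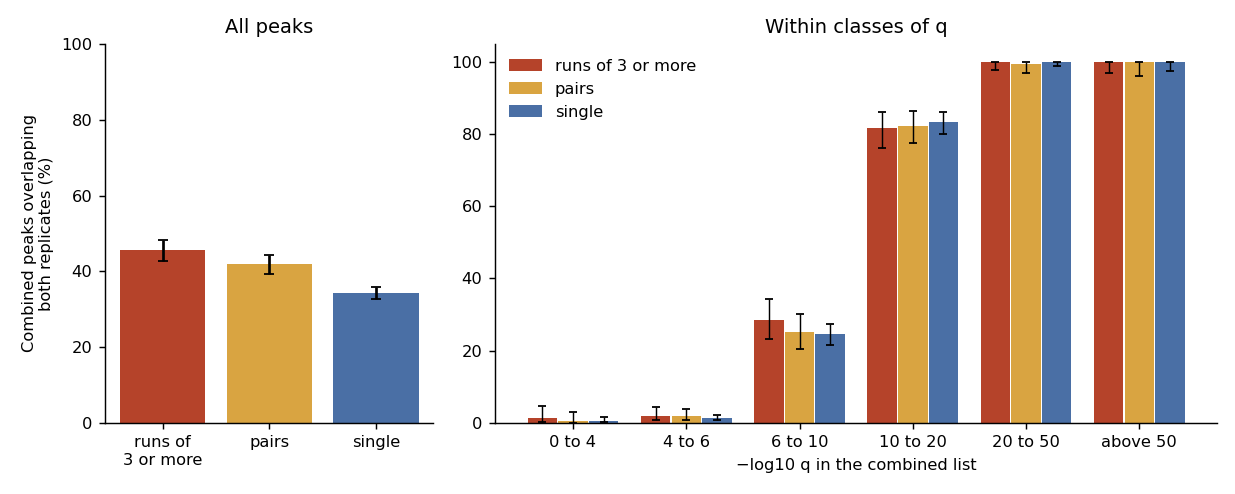
Share of combined peaks that overlap peaks of both replicates by at least 1 bp, in percent, for runs of 3 or more, pairs and single peaks. Left, all peaks; right, within classes of q score (a class includes its upper limit). Error bars are exact 95% binomial intervals. Over all peaks runs stood at 45.6% and single peaks at 34.4%, and within each class the intervals overlapped.

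Many runs of the combined list were not runs in either replicate. The same rule gave 177 runs with 597 peaks in replicate 1 (14.6% of its peaks) and 95 runs with 322 peaks in replicate 2 (11.2%). Of the 350 combined runs, 65 (18.6%) overlapped a run of each replicate, 71 a run of replicate 1 only, 15 a run of replicate 2 only, and 199 (56.9%) neither. In the other direction, 136 of the 177 replicate 1 runs (76.8%) and 80 of the 95 replicate 2 runs (84.2%) overlapped a combined run. A single replicate peak seldom spanned several members, which occurred for 2 replicate 1 peaks and 3 replicate 2 peaks. The reverse, a member that met 2 or more replicate peaks, was seen 36 times with replicate 1 and 26 times with replicate 2.

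Because the replicate lists come from separate libraries, runs defined in one were also read in the other. Of the peaks in replicate 1 runs, 429 of 597 had a replicate 2 peak at their place (71.9%, exact 95% interval 68.1 to 75.4), against 58.4% (56.5 to 60.3) of 2623 single peaks and 62.3% of the whole list. The share was higher in runs on 6 of 6 chromosomes, by 5.63 to 23.1 percentage points. The difference was larger among weak peaks. At a q score of 4 or less 34.3% of 67 peaks in runs and 18.7% of 438 single peaks were shared, and between 4 and 6 the shares were 43.35% of 173 and 34.9% of 854. Between 10 and 20 they were 96.7% and 98.25%.

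In the replicate 2 list the overall shares lay close together. Of the peaks in replicate 2 runs, 283 of 322 (87.9%, 83.8 to 91.2) overlapped a replicate 1 peak, against 86.65% (85.05 to 88.1) of 1947 single peaks and 87.0% of the whole list. The share was higher in runs on 2 chromosomes and lower on 4. At a q score of 4 or less it was 61.1% of 36 peaks in runs and 61.8% of 228 single peaks. Between 4 and 6 it was lower in runs, at 70.6% of 68 and 77.3% of 622, and above 50 it was higher, at 96.8% of 31 and 89.7% of 78, with overlapping intervals in both classes. The unshared replicate 2 peaks above 50 include regions that the combined list lacks as well, with q scores up to 319.9, which are described below. No test was run on either comparison, since peaks of a run share a region.

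**Figure D4:**
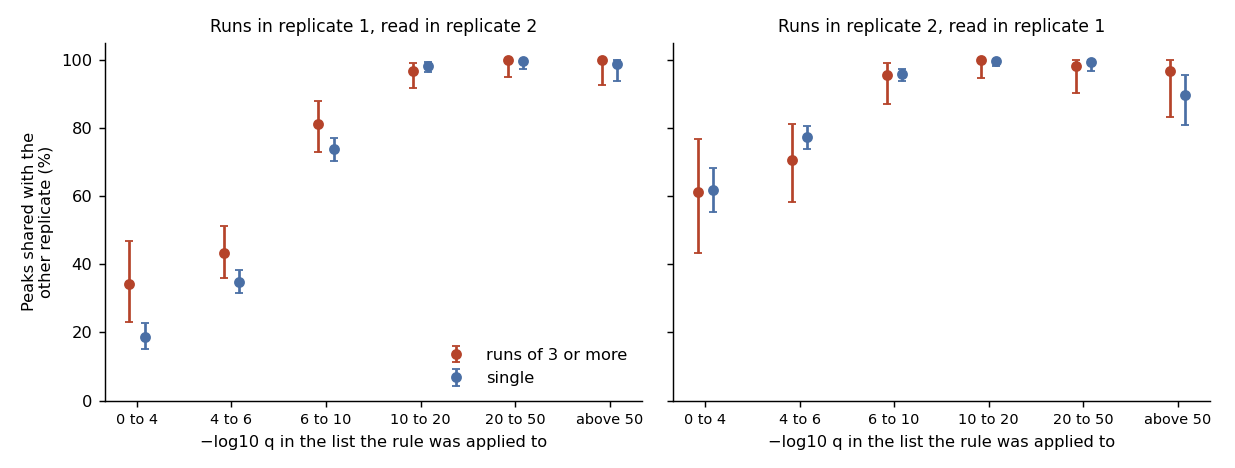
Share of peaks of one replicate that overlap a peak of the other by at least 1 bp, in percent, by class of q score, for runs of 3 or more and for single peaks. Runs were formed in replicate 1 (left) or replicate 2 (right), and error bars are exact 95% binomial intervals. In replicate 1 weak peaks in runs were shared more often (34.3% against 18.7% in the first class), and in replicate 2 the first class gave 61.1% and 61.8%.

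Runs were most numerous on chromosome III. It held 93 runs, or 6.75 per Mb, with 340 peaks, which was 26.7% of the members and 18.4% of the single peaks. Of all 6333 combined peaks it held 1289. Chromosome I followed with 64 runs (4.25 per Mb), then IV with 65 (3.73), V with 58 (2.78), X with 42 (2.37) and II with 28 (1.83). This order was that of the overall peak density apart from the last 2 places, where X had 47.8 peaks per Mb and II had 50.1. With a fixed joining distance, denser peaks fall into runs more often, so these counts were not independent of density. As a share of each chromosome's own peaks, members made up 26.4% on III, 21.2% on I, 20.6% on IV, 18.8% on V, 16.2% on X and 13.1% on II. Runs per Mb were highest on III in replicate 1 (3.27) and in replicate 2 (1.81) too. As a share of each chromosome's peaks, however, replicate 1 gave 17.5% on both IV and V and 16.1% on III, and replicate 2 gave 13.2% on I and 13.1% on III. In the 50% of combined peaks with the lowest q, chromosome I held 27.02% of the members and III 19.6%.

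Along the chromosomes, runs on I, III and IV lay more often in the outer parts than single peaks did, and those on X more often in the middle. Each end was taken as the outermost 25% of the length spanned by peaks. The ends were uneven on I, with 25 of 64 runs at the left end and 13 at the right. On IV, 25 of 65 runs lay at the left end and 11 at the right, while on III each end held 26 of 93. On I, III and IV the combined list had 55.3%, 56.5% and 58.3% of its members at the ends, and 47.7%, 49.6% and 47.6% of its single peaks. On X the share was 36.5% of 137 members and 52.7% of 516 single peaks, and on II it was 43.0% and 46.3%. Counted by run, 13 of the 28 on II (46.4%) lay at the ends, 3 at the left and 10 at the right. The contrasts on III, IV and X were larger with the rule applied to replicate 1, at 71.5% in runs and 51.8% for single peaks on III, 70.7% and 47.8% on IV, and 30.0% and 57.0% on X. Replicate 2 gave 68.2% and 50.5% on III, 64.9% and 48.4% on IV, and 34.3% and 52.3% on X. On I the contrast was larger too, at 67.0% and 54.3% in replicate 1 and 71.9% and 53.8% in replicate 2. On II the shares were 36.1% and 47.55% in replicate 1, and 39.1% and 47.1% in replicate 2. On V the direction did not hold across lists, with 40.2% in runs and 46.1% for single peaks in the combined list, 45.9% and 45.8% in replicate 1, and 48.3% and 40.3% in replicate 2.

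**Figure D5:**
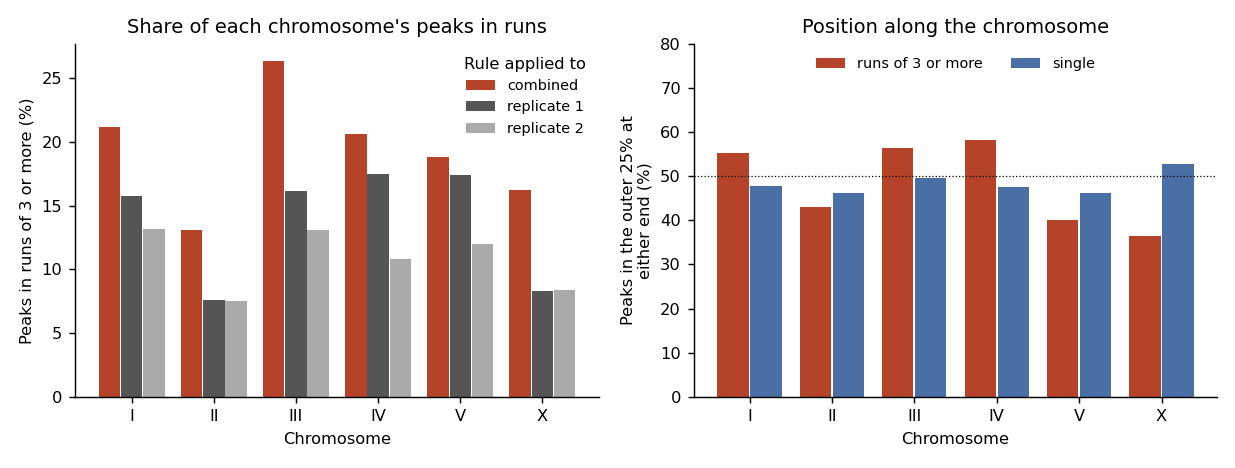
Left, share of each chromosome's peaks that stand in runs of 3 or more, in percent, with the rule applied to the combined, replicate 1 and replicate 2 lists. Right, share of combined peaks in the outermost 25% at each end of the chromosome, for runs of 3 or more and single peaks, with a dotted line at 50%. Chromosome III stood highest on the left in the combined list only (26.4%), and X had the lowest outer share in runs on the right (36.5%, against 52.7% for single peaks).

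Strong members and strong single peaks both lay mainly at the ends of the autosomes. There 82 of 594 members (13.8%) had a q score above 50, against 87 of 1455 single peaks (5.98%). In the central parts of the autosomes the counts were 27 of 541 members (4.99%) and 27 of 1606 single peaks (1.68%). At the ends of X they were 4 of 50 members (8.0%) and 18 of 272 single peaks (6.62%). In the middle of X they were 5 of 87 (5.75%) and 7 of 244 (2.87%). Over all combined peaks, at whatever position, 5.56% had a q score above 50. Runs were also found beside each other. For 56 of the 350 (16.0%) the nearest other run was within 10 kb, and the median distance to it was 60.8 kb.

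Some runs stood next to strong replicate regions that the combined list lacks. Overlapping replicate peaks with a q score above 100 that met nothing in the combined list were joined into 27 regions. Some of the regions had such a peak in 1 replicate only, and several had no replicate 1 peak at all. Since the 27 regions met no combined peak, they could lie inside a run only in a gap of at most 2000 bp. They were 1244 to 4799 bp wide, so many could not have fitted there. None of them lay inside a run, 6 were within 2000 bp of one and 8 within 5000 bp. Besides the run of 10 on chromosome I, these included a run of 3 on III from 2006895 to 2011385, whose peaks had q scores of 38.9 to 105.4 in the combined list, 898 bp from such a region. That region on III had a q score of 215.6 in replicate 2 and no peak in replicate 1. Within 2000 bp of such a region were 9 of the 1272 members, which stood in 7 runs, against 7 of the 3577 single peaks. Of the 27 regions, 12 were within 2000 bp of a combined peak of whichever class. Members have close neighbours by the rule, so 1 region can lie near several of them. Peaks near these regions were not counted in pairs or over all combined peaks, so no excess in runs can be read from these counts. Adding the 27 regions to the combined list gave 350 runs again, with 1283 members and a median length of 4208 bp. The equal count came from 1 joining of a pair of runs, the one on chromosome I described above, and 1 new run, on chromosome I from 2360767 to 2365430, while 5 runs gained a region. The joined run was then both the longest and the one with most peaks.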

How the data were processed

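ChIP-seq peak lists of 2 anti-GFP replicates and their combined list were used. Peaks were called with PeakSeq on WormBase WS180, per the file headers and the lists' second column. The authors deposited a 1-based start and end and a q-value for each peak. Not given in the sources used here are the aligner, the caller's settings and threshold, and how the combined list was made. A deeper library or a looser threshold could add peaks and lengthen runs. Samples were grouped by their titles.

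The −log10 q (q score) was computed from the decimal text of each deposited q-value. Peaks were joined and overlapped with pandas 2.3.3 and NumPy 2.4.6 in Python 3.11.15, intervals came from SciPy 1.17.1 and figures from matplotlib 3.10.9. The replicate value of a combined peak is that of the overlapping replicate peak with the lowest q. Joining and overlap were checked on simulated peaks. The length of a chromosome was the span of its peaks in the 3 lists. The alternatives were other joining distances, stronger or wider peaks only, other overlap rules and each replicate alone. No test was run, since the positions that chose the members come from the same peak calls as the values described, and peaks of 1 run share a region. Regions were named by rule: the 10 runs with most peaks (ties by length), the run with most peaks on each chromosome, the 3 longest, and the 5 of lowest q with full support. The run on III near a region without a combined peak was chosen after its values were seen. The members and these rules were chosen with earlier results of these data known.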

Additional observations from a re-analysis of the deposited data

How the results depend on the processing

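Of 58 values recomputed under an alternative, 32 moved by less than the spread between the replicates, or, for counts, by less than 1.5 times, and 26 moved further. A joining distance of 1000 bp gave 170 runs with 572 peaks (9.03% of the list), a median length of 2968 bp and 25.7% of members on chromosome III. A distance of 5000 bp gave 642 runs with 2676 peaks (42.25%), 7107 bp and 24.5%. Keeping the more significant 50% of peaks gave 98 runs with 322 peaks (10.2%), a median peak width of 714 bp, 19.6% on III and 79.8% with support in both replicates. With either replicate left out, the rule gave 95 to 177 runs, 322 to 597 peaks (11.2% to 14.6%), median widths of 434 to 563.5 bp, median lengths of 3638 to 4639 bp and 25.3% to 26.4% on III, and support by the remaining replicate was 50.55% to 63.3%. Support in both was 36.6% at a 50% reciprocal overlap and 28.5% for centres within 100 bp. Beyond the smaller or larger lists these settings make, the cause was not tested. Merging peaks under 200 bp apart changed nothing, as there were none, so its values are among the 32 although they could not move. Apart from counts, values with a replicate left out were judged against a spread taken from those same values. The strong regions were added after the data were seen. No paired analysis was possible because no peaks of the input libraries, which share the replicate numbers, were used. Read depth is not known, so a peak without support may be absent from a replicate or missed there.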
